A study of Mus musculus with 2 samples.

Results

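The STAT factors and JAK kinases described here are 9 genes of the 19728 named genes with values on the arrays. They were chosen by name, as the probes of the array files whose gene name is Stat2, Stat3, Stat4, Stat5a, Stat5b, Stat6, Jak1, Jak2 or Jak3. They comprise 6 STAT genes and 3 JAK genes, read by 18 probes of 60 bases each, and all 18 probes were well above background on both arrays, so no member was lost to a filter on dim signal. Other members of both families were not analysed here.

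Granulocytes and monocytes had been sorted from bone marrow of male C57BL/6 mice, labelled wild type. RNA of each was hybridised to 1 one-colour Agilent array, so there are 2 arrays in all. The granulocyte group and the monocyte group share strain, sex, genotype and tissue, and no treatment is labelled. The sources used here do not give the age or number of the mice, any pooling, or the gates of the sort. With 1 array per group no test was possible and no p-value is given. Every difference is granulocyte minus monocyte on the log2 scale, and the error beside it comes from the scanner software's error model for single spots. It says nothing of the spread between mice.

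Cytokine receptors without a kinase of their own carry JAK kinases on their cytoplasmic tails. When a ligand brings the receptor chains together, the JAKs phosphorylate the receptor and then the STAT proteins docked on it, and the STATs pair through their SH2 domains, enter the nucleus and bind DNA. In the bone marrow this route carries the signals of granulocyte and monocyte growth factors, of interferons and of many interleukins. Transcript levels, which the arrays measure, do not show how much of a STAT is phosphorylated.

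The scanner intensities are given first as read, before any scaling. The monocyte array was the brighter one, with a 75th percentile of 620.9 against 339.4 for granulocytes, and scaling each array to its 75th percentile added 0.87 to every log2 difference. After scaling, the median difference over 15608 genes above background on at least 1 array was 0.41, with the middle 50% of the genes between -0.72 and 1.11. Differences are therefore also given relative to that median. Intensities of different probes are not compared with each other, because each probe binds its target with its own strength.

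The labels were checked on marker genes. All 10 granulocyte markers were higher on the granulocyte array, with Mmp9 (9.65) and Cxcr2 (8.38) leading, and all 9 monocyte markers were higher on the monocyte array, led by Fn1 (-8.51) and Ccr2 (-7.67). The summed scanner intensity of the 10 granulocyte markers was 646964 for monocytes against 1397964 for granulocytes. S100a8, S100a9, Ltf, Camp and Ngp carried nearly all of the monocyte sum, with differences from 1.06 (S100a9) to 2.08 (Ltf), while Cxcr2 read 88.3, Mmp9 227 and Retnlg 1374 in monocytes. The summed intensity of 12 NK-cell markers was 14377 for monocytes against 800.4 for granulocytes, and that of 12 T-cell markers was 5439 and 2207. Nkg7 and Ccl5 carried most of the NK-cell sum, though 11 of the 12 were below 0 and 7 passed 4-fold toward monocytes. The T-cell markers were mixed, with 8 of 12 below 0, 4 past 4-fold toward monocytes, and Cd3d (1.76) higher in granulocytes. No listed marker of either type was read at 0, and Ncr1, a defining NK-cell gene, was not well above background on either array. Other marker lists leaned toward the granulocyte array. Above 0 were 8 of 8 erythroid, 8 of 8 platelet, 9 of 10 eosinophil, basophil and mast cell, and 9 of 10 B-cell markers. Their medians were 1.56, 1.72, 1.38 and 1.08, and 0, 3, 2 and 0 of them passed 4-fold toward granulocytes. Stem and progenitor markers were split, with 4 of 8 above 0. The part of such cells in the values below was not tested. In a bulk sample, fewer cells of a type and less RNA per cell cannot be told apart.

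Of the 9 members, 2 passed 4-fold toward granulocytes and 0 toward monocytes. Over all genes, 8.54% passed 4-fold toward granulocytes and 10.4% toward monocytes. At 2-fold, 5 members were higher in granulocytes and 0 in monocytes, beside 29.1% and 20.9% of all genes. The 2 members past 4-fold were Stat4 and Jak1, joined at 2-fold by Stat3, Stat6 and Stat5b. Without scaling the counts at 2-fold were 3 in granulocytes and 2 in monocytes, and with scaling by spike-in controls they were 3 and 1. The shares of all genes at 2-fold were then 9.88% toward granulocytes and 35.3% toward monocytes without scaling, and 15.0% and 28.7% with spike-in controls. The median of the 9 members was 1.26, against 0.41 over all genes.

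**Figure D1:**
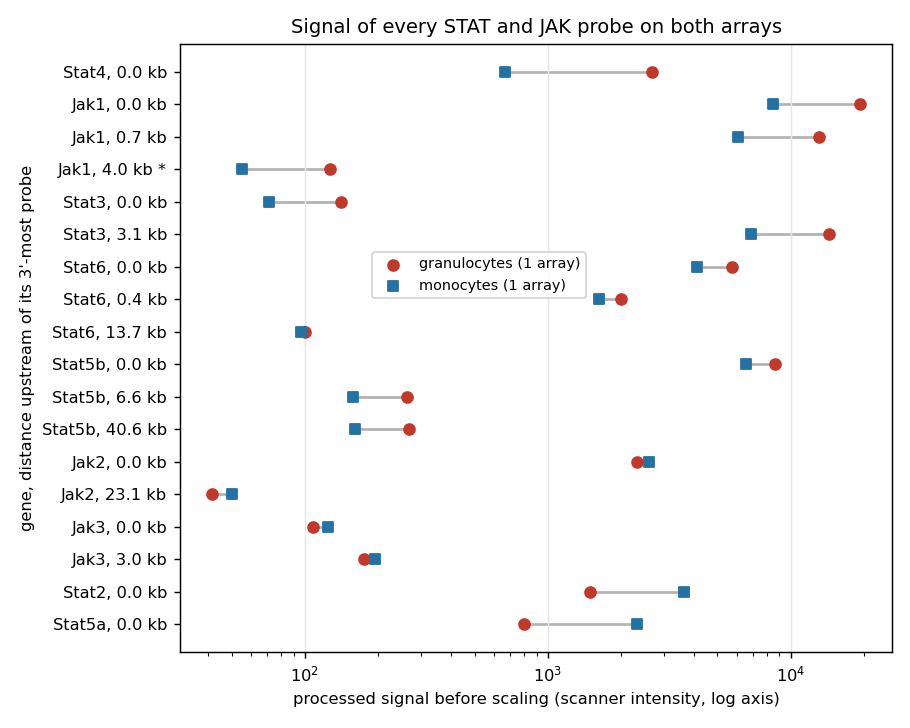
Scanner intensity (processed signal before scaling, log axis) of the 18 member probes on the granulocyte array (circles) and the monocyte array (squares), 1 array each, with a line joining the same probe. Each row gives the gene and the distance of the probe upstream of that gene's 3′-most probe, and the asterisk marks a Jak1 probe on the strand opposite to the gene. The Stat4, Jak1, Stat3, Stat6 and Stat5b probes were brighter on the granulocyte array, and the Stat2, Stat5a, Jak2 and Jak3 probes on the monocyte array. For the Stat6 probe furthest upstream, the brighter Jak2 probe and both Jak3 probes, the gap before scaling was within the spot error.

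Stat4, which carries interleukin-12 signals in NK and T cells, had the largest difference among the members. Its probe (chr1:52051503-52051562, mm8, plus strand) read 2695 in granulocytes against 665.0 in monocytes. The granulocyte array was thus the brighter one even before scaling, and the scaled difference was 2.89 ± 0.20, or 7.41-fold. This was 2.48 above the median of all genes, and 3.65% of genes had a larger difference. The NK-cell markers given above were mostly lower in granulocytes, and the T-cell markers were mixed. The part of such cells in the Stat4 readings was not tested. Across the 12 ways of processing the arrays, the Stat4 difference lay between 2.02 and 2.89.

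Stat3, the main STAT of the G-CSF, interleukin-6 and interleukin-10 receptors, was read by a probe printed as 10 spots and by a single-spot probe. The 10 spots (chr11:100704374-100704433, mm8, minus strand) ranged from 13858 to 14927 in granulocytes and from 6661 to 7170 in monocytes. The spots of the arrays did not overlap, and the SD between spots was 0.035 and 0.029 on the log2 scale, which shows how closely a spot repeats within an array. The difference was 1.94 ± 0.20, or 3.83-fold. The second Stat3 probe (chr11:100701238-100701297, minus strand) read 141.3 and 71.1 and gave 1.86, within the spot error of the first. This second probe was named by symbol and not by accession, and it may lie beyond the annotated end of Stat3.

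Stat5a and Stat5b encode close relatives that both act downstream of the GM-CSF, interleukin-3 and interleukin-5 receptors, and here they differed in direction. The only Stat5a probe (chr11:100700920-100700979, mm8, plus strand) read 799.9 in granulocytes against 2322 in monocytes, a difference of -0.67 ± 0.20. The Stat5b probe that represents the gene (chr11:100596875-100596934, minus strand) read 8618 and 6573, a difference of 1.26 ± 0.20. Of the other Stat5b probes, one read 264.1 and 158.0, a difference of 1.61. The other read 268.3 and 160.1, a difference of 1.62. All 3 Stat5b probes were thus brighter in granulocytes and the Stat5a probe in monocytes, before and after scaling. The granulocyte-to-monocyte ratio of Stat5b was 3.81-fold that of Stat5a, a gap of 1.93 ± 0.29 on the log2 scale, which no scaling by 1 constant per array can change.

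The genes Stat5b, Stat5a and Stat3 lie next to each other on chromosome 11. In the RefSeq annotation of GRCm38.p6, 346 bases separate the bounds of Stat5b and Stat5a, and 1636 bases separate Stat5a from Stat3, with Stat5a on the plus strand and both others on the minus strand. The 3′-most Stat3 probe lies 258 bases from the Stat5a probe in mm8, on the other strand. That is less than the 1636 bases between the genes. If the spacing is alike in mm8, these probes cannot both lie within the bounds of their genes. The Stat3 probe was named by symbol and not by accession, and its place relative to the end of Stat3 was not checked. The differences of these probes were 1.86 and -0.67.

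Stat6, the STAT of interleukin-4 and interleukin-13, read higher on the granulocyte array by all 3 of its probes, but by the third only within the spot error before scaling. The probe that represents it (chr10:127063582-127063641, mm8, plus strand) read 5712 and 4108, a difference of 1.35 ± 0.20. A probe printed as 10 spots ranged from 1876 to 2048 on the granulocyte and from 1578 to 1704 on the monocyte array, with no overlap, and gave 1.17. The third probe lies 13706 bases upstream of the first, read 100.2 and 96.4 (0.06 ± 0.21 before scaling), and gave 0.93. The range over the 3 probes, 0.42, was the widest of any member and a little wider than the median range of 0.37 over 5397 genes with several probes above background. That median mixes genes with different numbers of probes. A range tends to widen with that number, so the values are not strictly alike.

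Stat2, which joins IRF9 in the complex that binds interferon-stimulated response elements, was lower in granulocytes. Its only probe (chr10:127695074-127695133, mm8, plus strand) read 1498 in granulocytes against 3624 in monocytes. The scaled difference was -0.40 ± 0.20, or 1.32-fold higher in monocytes, and 0.81 below the median of all genes. Stat2 and Stat5a were the only members below 0, and both stayed below 0 in all 12 ways of processing, Stat2 between -1.27 and -0.40 and Stat5a between -1.54 and -0.65. Neither reached 2-fold with scaling to the 75th percentile. Without scaling both did, and with spike-in scaling Stat5a did (-1.18) while Stat2 gave -0.92.

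Jak1, the kinase of gp130, interferon and common gamma chain receptors, had the largest difference of the JAKs. Its representing probe (chr4:100650421-100650480, mm8, minus strand) read 19318 in granulocytes against 8467 in monocytes, a difference of 2.06 ± 0.20, or 4.17-fold. A second probe 700 bases upstream read 13076 and 6074 and gave 1.98. Jak1 therefore stood at the 4-fold line, on either side of it by probe, and it was under 4-fold with quantile normalisation, spike-in scaling, no scaling, normexp correction and the authors' value table.

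The third Jak1 probe runs on the opposite strand. Its position is given as chr4:100654397-100654456 (mm8) on the plus strand, while RefSeq places Jak1 on the minus strand. It is shown because it reads the complement of the gene: the first line is the probe as on the array, the second its reverse complement, which runs in the direction of Jak1.
Jak1 probe on the plus strand: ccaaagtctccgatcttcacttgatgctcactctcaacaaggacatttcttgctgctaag
Jak1 probe, reverse complement: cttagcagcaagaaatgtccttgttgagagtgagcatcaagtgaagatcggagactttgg
This probe read 126.5 and 55.2 and gave 2.07 ± 0.21, the same difference as the sense probes within the spot error. Among 26183 named probes with a position and a known gene strand, 295 (1.13%) lay on the opposite strand.

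Jak2, the kinase of the receptors for GM-CSF, interleukin-3, erythropoietin and thrombopoietin, was close to the middle of all genes. The representing probe (chr19:29377868-29377927, mm8, plus strand) read 2335 in granulocytes and 2600 in monocytes. After scaling the difference was 0.72 ± 0.20, and without scaling it was -0.16, so its direction depended on the scaling. Relative to the median of all genes it was 0.31 higher, and this stayed above 0 in all 12 ways of processing, between 0.10 and 0.31. Ways that shift all genes by 1 constant can hardly change this relative value. A second probe 23150 bases upstream, shown because it lies far from the 3′ end and still gave a like difference, read 41.5 and 50.1 and gave 0.60.
Jak2 probe, chr19:29354718-29354777, plus strand: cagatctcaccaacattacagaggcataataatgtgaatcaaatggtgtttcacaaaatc

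Jak3, the kinase bound to the common gamma chain of lymphocyte cytokine receptors, was dim on both arrays. Its representing probe spans 326 bases of the genome (chr8:74615916-74616241, mm8, plus strand), longer than its 60 bases. It read 174.5 in granulocytes and 195.2 in monocytes, which is a difference of 0.71 ± 0.21 after scaling and -0.16 without.
Jak3 probe, chr8:74615916-74616241, plus strand: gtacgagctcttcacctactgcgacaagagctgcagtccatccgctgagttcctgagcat
This sequence is shown because the other Jak3 probe cannot be assigned to Jak3 alone. That probe (chr8:74619175-74619234) lists accessions of both Jak3 and Insl3, which encodes a testicular hormone, and the RefSeq genes overlap by 1326 bases in GRCm38.p6. It read 107.9 and 124.6 and gave 0.66, close to the probe that lists Jak3 alone. Jak3 and Jak2 differed by 0.0063, far less than the spot error.

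**Figure D2:**
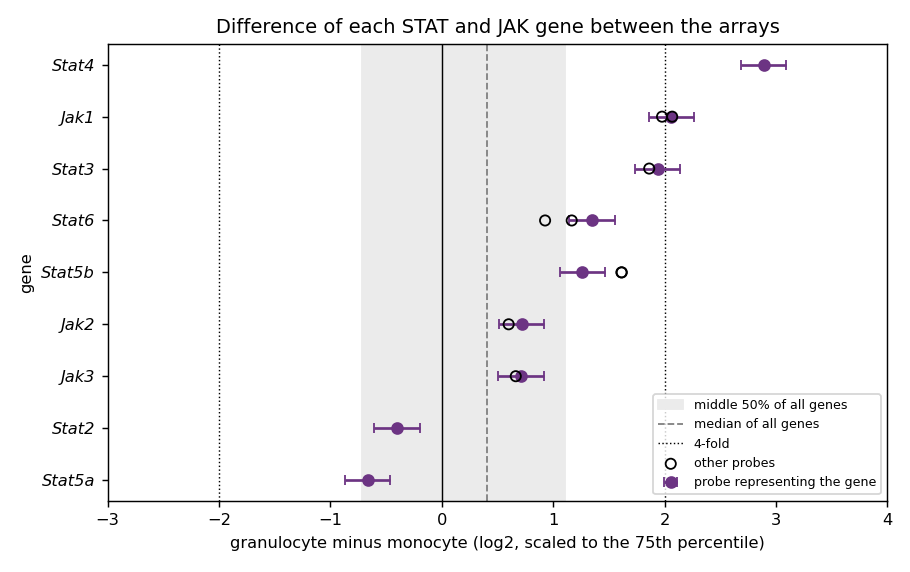
Difference between the arrays (granulocyte minus monocyte, log2, scaled to the 75th percentile) of the 9 members. Filled circles are the probes that represent the genes with the scanner software's spot error, open circles the other probes, the grey band the middle 50% of 15608 genes and the dashed line their median of 0.41. Stat4 lies at 2.89, Jak1 and Stat3 lie near the dotted 4-fold line, and Stat2 and Stat5a lie below 0.

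In order of the difference the members were Stat4, Jak1, Stat3, Stat6, Stat5b, Jak2, Jak3, Stat2 and Stat5a. Neighbours that differed by less than their combined spot error were Jak1 and Stat3 (a gap of 0.12), Stat6 and Stat5b (0.085), Jak2 and Jak3 (0.0063), and Stat2 and Stat5a (0.26). The other steps were wider than that error: those from Stat4 to Jak1 (0.83), from Stat3 to Stat6 (0.59), from Stat5b to Jak2 (0.55) and from Jak3 to Stat2 (1.11). The spot error leaves out the spread between probes and between ways of processing. With quantile normalisation Jak3 (0.68) came close to Stat5b (0.75). With the mean of all probes Stat5b (1.497) lay above Stat6 (1.147). Stat4 stayed the highest member, and Stat2 and Stat5a the lowest, in all 12 ways of processing. The widest contrast was that of Stat4 with Stat5a, whose ratios differed by 11.8-fold. All 6 members with several probes had probes of 1 direction after scaling. The probes counted include the Jak1 probe on the opposite strand, the Jak3 probe that also lists Insl3 and the Stat3 probe named by symbol. They are therefore not all sure readings of the gene alone.

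**Figure D3:**
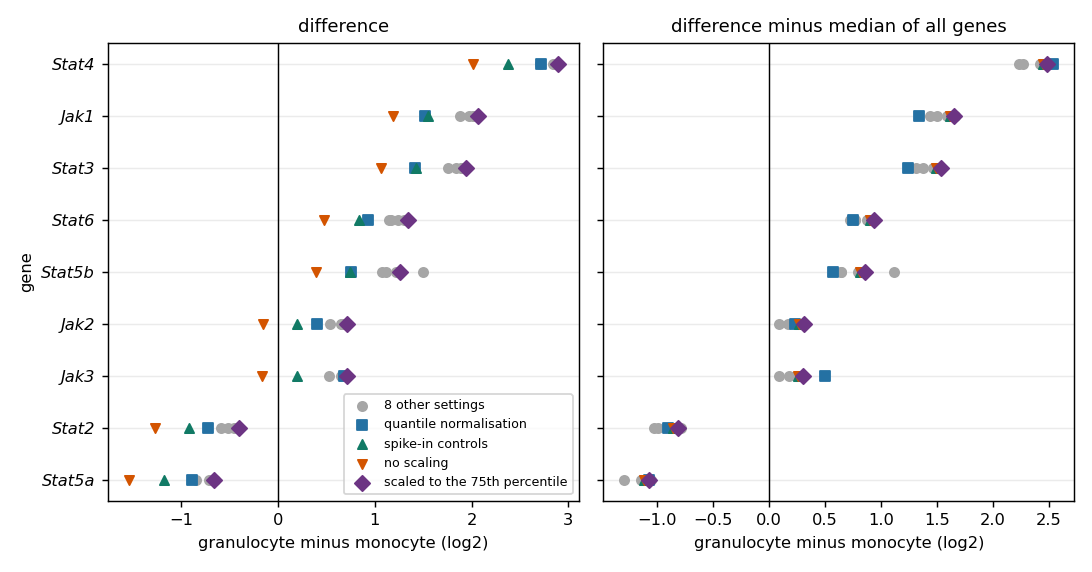
Differences of the 9 members (granulocyte minus monocyte, log2) under 12 ways of processing the arrays, as computed (left) and minus the median of all genes under the same setting (right). Without scaling (downward triangles) Jak2 and Jak3 fall below 0 at -0.16 each. Relative to the median of all genes, Stat2 and Stat5a are below 0 and the other 7 members above 0 under every setting drawn.

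Genes around the pathway were taken from lists by role, 116 genes above background in all. Of these, 16 passed 4-fold toward granulocytes and 16 toward monocytes, and their median was 0.77. That is 13.8% in each direction, beside 8.54% and 10.4% of all genes, and nothing is called particular to the lists from it. A median over a list below counts a gene seen on 1 array only at its lower bound.

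Receptors for growth factors of the lineages had a median of 1.23 over 6 genes above background. Csf3r, the G-CSF receptor that signals largely through Stat3, read 27058 in granulocytes and 4528 in monocytes (3.45). Csf2rb, the beta chain shared by the GM-CSF, interleukin-3 and interleukin-5 receptors, read 26824 and 15692 (1.65). Csf1r, the M-CSF receptor, was lower in granulocytes (-1.56), and Il3ra gave -0.13. Csf3r alone of this list passed 4-fold.

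Among receptor chains of the gp130 and interleukin-10 families, 2 of 9 passed 4-fold toward monocytes and 0 toward granulocytes, and the median was -0.79. That median was -0.14 with normexp correction and -0.34 with no filter and no bounds. Il6st, which encodes gp130 itself, read 12.7 in granulocytes against 1964 in monocytes, a difference of -6.40. The ligand-binding chain Il6ra gave 0.10, and -0.77 without scaling. Il10ra, the interleukin-10 binding chain, was lower in granulocytes (-2.14), whereas its partner Il10rb was higher (1.59). Il20rb gave 0.88. The receptors that use Stat3 thus did not move together, with Csf3r and Il6st at opposite ends.

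Of 10 chains of the common gamma, interleukin-4 and interleukin-12 receptor families, 1 passed 4-fold toward monocytes and 0 toward granulocytes, and the median was -0.25. The sign of that median turned with normexp correction (0.04) and with no filter and no bounds (0.06). Il2rb, found on NK and T cells, was lower in granulocytes (-4.13, with readings of 62.8 and 2005), as was Il7r (-1.32). The common gamma chain gene Il2rg, the partner of Jak3, gave -0.75. Il4ra, the receptor chain upstream of Stat6, was higher in granulocytes (1.77). Il2ra gave 0.78, and -0.09 without scaling. The chains of the interleukin-12 receptor, upstream of Stat4, did not share the difference of Stat4: Il12rb1 gave -0.20, and Il12rb2, not well above background in granulocytes, was at least 1.52-fold higher in monocytes. NK-cell markers and 8 of 12 T-cell markers were also lower in granulocytes, apart from Klre1 (1.75) among the former, and their part in these values was not tested.

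Interferon receptor chains ranged from Ifngr1 at -0.82 to Ifnlr1 at 5.76. Ifnlr1, the binding chain for the type III interferons, read 17587 in granulocytes against 592 in monocytes, the only one of 5 past 4-fold. Ifngr2, the chain that carries Jak2, was higher in granulocytes after scaling (1.04, and 0.63 by its other probe), but gave only 0.17 without scaling. The type I interferon receptor genes Ifnar1 (0.60) and Ifnar2 (0.48) were within 2-fold and turned negative without scaling, as did the median of the list (0.60, and -0.27 without scaling). Of the hormone-like receptors, Prlr (2.19, readings 694 and 278) and Crlf2 (1.54) were the highest, and 1 of 5 was at least 4-fold higher in granulocytes.

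Inhibitors of the pathway had a median of 0.94 over 19 genes, with 1 at least 4-fold higher on either side. Cish, a SOCS family gene switched on by STAT5, read 963 in granulocytes and 198 in monocytes (3.15). Ptprc, the phosphatase CD45, was also higher (1.70). Socs6 (-2.03) and Socs5 (-1.84) were lower in granulocytes. The best-known feedback inhibitors Socs1 and Socs3 both gave 1.08, and 0.21 without scaling. Of the 11 adaptors and nuclear partners, 0 reached 4-fold in either direction, and the coactivator genes Ep300 (1.80) and Crebbp (1.33) were the highest. All 11 were above 0 with a median of 0.85, which was -0.02 without scaling.

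**Figure D4:**
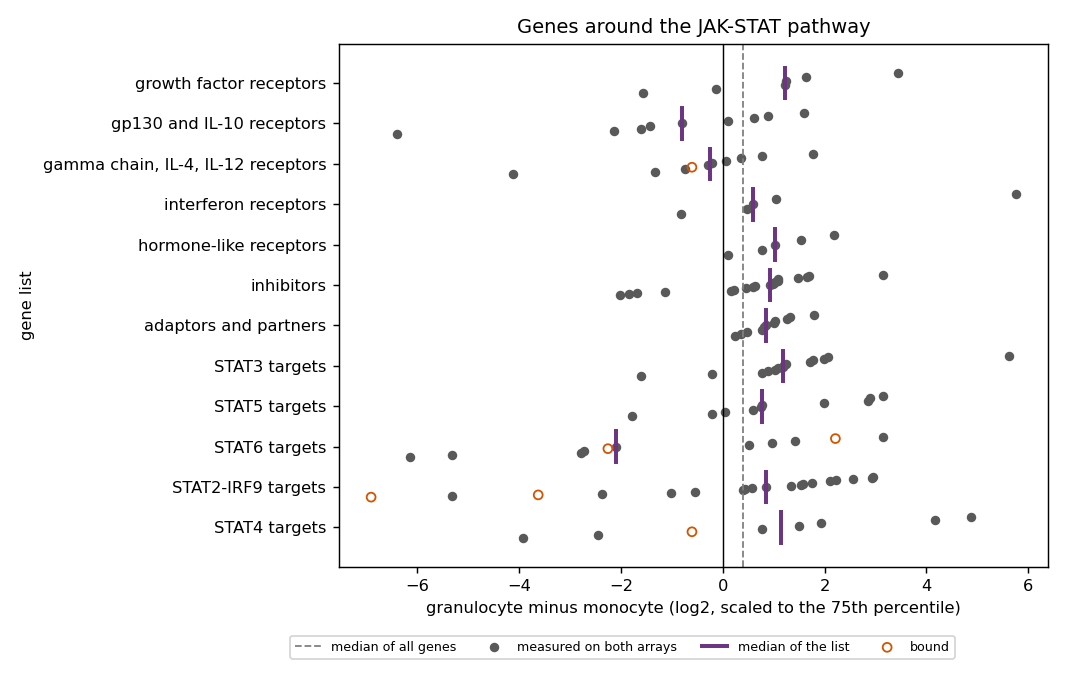
Difference between the arrays (granulocyte minus monocyte, log2, scaled to the 75th percentile) of the genes in 12 lists around the pathway, each point a gene, open circles lower bounds and bars list medians. The dashed line is the median of all genes (0.41). The points furthest out are Mx1 (at least 119.9-fold), Il6st (-6.40) and Clec10a (-6.15) on the monocyte side and Ifnlr1 (5.76) and Il1r2 (5.62) on the granulocyte side.

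Genes described elsewhere as STAT targets were also listed, and some stand in more than 1 list. Whether they report the activity of a STAT in these cells was not tested. Of 14 genes listed for STAT3, 2 passed 4-fold toward granulocytes and 0 toward monocytes, and the median was 1.19. Il1r2, the decoy receptor for interleukin-1, led with 5.62 (readings 12332 and 460), and Cebpd gave 2.07. Birc5, a gene of dividing cells, was lower in granulocytes (-1.61) and Pim1 gave -0.21. Of 10 genes listed for STAT5, 3 passed 4-fold toward granulocytes and 0 toward monocytes. They were Cish (3.15), Bcl6 (2.89), a transcriptional repressor, and Osm (2.86), which encodes oncostatin M. Ccnd1 was lower in granulocytes (-1.79). The list's median of 0.76 was -0.11 without scaling.

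Of 11 genes listed for STAT6, 2 passed 4-fold toward granulocytes and 6 toward monocytes, and the median was -2.09. That median depended on the processing, being -0.26 with normexp correction, -0.79 with the gene names of the files and 0.16 with no filter and no bounds. Stat6 itself gave 1.35. The lectin gene Clec10a (-6.15) and Tfec (-5.32, and -2.16 by its other probe) were the lowest. Cish, which the list shares with that of STAT5, was the highest, and Retnla, not well above background in monocytes, was at least 4.64-fold higher in granulocytes. Clec10a also stands in the list of dendritic cell markers, of which 5 of 10 were at least 4-fold higher on the monocyte array. The markers were mixed: Siglech, not well above background in granulocytes, was at least 15.6-fold higher in monocytes, while Xcr1 gave 1.20. Their summed intensity was 26037 in monocytes and 2163 in granulocytes, mostly from Bst2 and Clec10a itself, and the part of such cells in the STAT6 list was not tested.

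Interferon targets of STAT2 with IRF9 were split. Of 19 genes above background, 5 passed 4-fold toward granulocytes and 4 toward monocytes, and the median of 0.85 was -0.02 without scaling. Rsad2, the antiviral viperin, read 7558 in granulocytes and 1786 in monocytes (2.95), and Oas3 gave 2.93 by its brightest probe and 1.07 by another. Mx1, not well above background in granulocytes, was at least 119.9-fold higher in monocytes, and Mx2 gave -5.32 (readings 34.8 and 2547). Irf9, the partner of STAT2, gave 0.85, and -0.02 without scaling, against -0.40 for Stat2.

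Of 8 genes listed for STAT4, 2 passed 4-fold toward granulocytes and 2 toward monocytes, the other 4 lay between, and the median was 1.14. That median was 0.27 without scaling, 0.37 with the mean of all probes and 0.78 with the gene names of the files. It was 1.49 with probes above background on both arrays. The interleukin-18 receptor genes Il18rap (4.87, readings 2112 and 132.1) and Il18r1 (4.17, readings 1681 and 171) were higher in granulocytes, as was Stat4. Ifng (-3.91, readings 14.7 and 407) and Tbx21 (-2.44) were lower in granulocytes. Both are also expressed by NK and T cells. Of NK-cell markers, Klrd1 gave -4.53 and Txk -3.82, and of T-cell markers Thy1 gave -5.06 and Lck -3.98. Their part in the values of Ifng and Tbx21 was not tested.

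Likeness to a member can only be a like difference over 2 arrays, a single number, and many genes share it. Among the genes of the lists, those nearest in difference were Bcl6 (2.89) and Osm (2.86) to Stat4, Hlx (1.94) and Bcl2l1 (1.99) to Stat3, Cebpd (2.07) and Oas2 (2.11) to Jak1, Isg15 (1.35) and Crebbp (1.33) to Stat6, and Grb2 (1.26) and Mcl1 (1.25) to Stat5b. Id1 (0.75) and Cebpb (0.77) were nearest to both Jak2 and Jak3. Il21r (-0.29) and Zbp1 (-0.54) were nearest to Stat2, and Il2rg (-0.75) and Zbp1 to Stat5a.

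Promoter windows of the members, the 250 bases before each start site in the reference used, were searched for STAT motifs as a description of the sequence. These starts need not be the outer bounds of a gene. The windows of Stat5a and Stat5b lie inside the RefSeq bounds of these genes, so the bases before their outermost starts were not searched. The motifs were GAS (TTCNNNGAA), its longer STAT6-type form (TTC and GAA with NNNN between them) and the interferon-stimulated response element (GAAA and GAAA with NN between them), on both strands. Over 32851 windows of the same length, 7.02% held the first, 5.85% the second and 2.98% the third. Of the 12 member windows, 0 held the first, 1 the second and 2 the third. The windows with a match are shown, matches in capitals. The Stat2 window holds the response element in its reverse form (TTTCAGTTTC) and, 2 bases beyond, the longer GAS form. The Stat4 window, that of its downstream start, holds the response element.
Stat2, chr10:128270248-128270497, plus strand, GRCm38.p6: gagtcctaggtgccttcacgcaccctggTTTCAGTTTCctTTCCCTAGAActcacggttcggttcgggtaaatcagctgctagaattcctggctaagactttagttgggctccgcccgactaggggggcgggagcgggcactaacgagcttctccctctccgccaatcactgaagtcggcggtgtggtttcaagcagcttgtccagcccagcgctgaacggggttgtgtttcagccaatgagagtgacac
Stat4, chr1:52007990-52008239, plus strand, GRCm38.p6: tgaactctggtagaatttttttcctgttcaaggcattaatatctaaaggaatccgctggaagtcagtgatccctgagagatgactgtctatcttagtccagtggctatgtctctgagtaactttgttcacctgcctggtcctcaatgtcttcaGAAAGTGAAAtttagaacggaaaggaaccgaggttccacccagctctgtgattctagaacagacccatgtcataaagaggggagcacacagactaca
The differences of these genes were 2.89 for Stat4 and -0.40 for Stat2. A match is no evidence of binding, and the absence of these letters from the other windows says nothing of the factors.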

How the data were processed

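Per the labels' protocols, total RNA was amplified from a T7 promoter and labelled with Cy3. Per the file headers, Agilent Feature Extraction 10.5.1.1 gave for each spot an intensity with background subtracted, on a linear scale and not scaled between arrays, with flags, and probe positions in mm8. The authors' deposited value table is on a log2 scale. It equalled log2 of the processed signal plus -0.24 for granulocytes and -0.92 for monocytes, with 100.0% of single-spot probes within 0.01, and served as an alternative. How the authors chose these constants is not stated.

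Control spots and outlier spots (143 and 103 of 43379 gene spots) were left out. Spot values were log2 of the processed signal minus the array's 75th percentile, averaged per probe, and 0 spots were saturated. Probes were named by RefSeq accession (GRCm38.p6), otherwise by symbol. A gene was represented by the probe detected above background on the larger number of arrays, with ties settled by brightness. Where 1 array was dim, a lower bound was set at the higher of that array's lowest signal well above background and the probe's own. "4-fold" is a rule of size, not a test. The members and lists were chosen with earlier results of these data known. Named genes were all members, the 2 highest above 0 and the 2 lowest below 0 of each list, the 2 listed genes nearest each member and, of each marker list, the 2 genes furthest from 0. Marker genes are named for the granulocyte, monocyte, NK-cell, T-cell and dendritic cell lists, and the other marker lists are described by counts and medians only. Il6ra, Il12rb1, Il12rb2, Ifnar1, Ifnar2, Socs1, Socs3, Irf9, Ncr1, Klre1, Nkg7, Ccl5, Cd3d, Xcr1, Bst2, S100a8, S100a9, Ltf, Camp, Ngp and Retnlg fall outside that rule and were named after their values were seen. The scripts were tested on simulated data. The 11 alternatives cover scaling, normexp background correction (limma 3.58.1, offset 50), dim probes, the probe rule and naming. Figures used matplotlib 3.10.9.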

Additional observations from a re-analysis of the deposited data

How the results depend on the processing

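These 11 alternatives reprocess the same 2 arrays, so the spread between mice is not covered. The count of members at least 4-fold higher in granulocytes fell from 2 to 1 with quantile normalisation, no scaling, spike-in scaling, normexp correction and the authors' value table, and Stat4 was the one left. In that order, the share of all genes fell from 8.54% to 6.59%, 3.72%, 5.04%, 5.59% and 7.04%. At 2-fold the count of members fell from 5 to 3 with quantile normalisation, no scaling and spike-in scaling. The share of all genes fell from 29.1% to 21.5%, 9.88% and 15.0%. The count of members at least 2-fold higher in monocytes rose from 0 to 2 without scaling and to 1 with spike-in scaling. The share of all genes rose from 20.9% to 35.3% and 28.7%, and was 23.9% with quantile normalisation. The members' median of 1.26 became 0.75 with quantile normalisation, 0.39 without scaling and 0.75 with spike-in scaling. Of 99 member differences recomputed, 73 moved by less than their spot error. The settings on dim probes, the brightest probe and naming left every member unchanged. Scaling to the median of detected probes and the authors' value table shift all differences by 1 constant smaller than that error. Much of this count was thus fixed beforehand. The median of the STAT6 target list changed sign, from -2.09 to 0.16, with no filter and no bounds, where 13 genes enter in place of 11, and was -0.26 with normexp correction and -0.79 with the gene names of the files. That of the gamma chain list, -0.25, turned to 0.04 with normexp correction and 0.06 with no filter and no bounds. The median of the gp130 list, -0.79, became -0.14 and -0.34 under the same settings. For the STAT4 target list the median of 1.14 lay between 0.27 without scaling and 1.49 with probes above background on both arrays. Without scaling the medians of the adaptors, interferon receptors, STAT5 targets and STAT2 targets turned negative. No paired analysis was possible because each group has 1 array. Depth does not apply to arrays, and their number limits the precision.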
